A study of Mus musculus with 39 samples.

Results

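In MIN6 cells, a mouse insulinoma line used as a model of the pancreatic β cell, the transcript response to the hypersecretion inducer SW016789 differed between 1 h and 2 h of exposure. Btg2, Junb and Dusp1, genes of the first transcriptional wave, were raised at 1 h and had a smaller effect at 2 h. Over the same hour 53 other genes gained in their response, led by Chac1, Slc7a11, Eif4ebp1, Herpud1 and Sesn2 of the amino acid and ER stress responses, and these included Hspa5, Creld2 and other ER chaperone genes. The calls depended on the libraries used. Without the libraries that stood apart, described below, 11 of the 53 genes and Btg2 were still called. Slc7a11, Hspa5, Junb and Dusp1 were not. The comparison described here is the difference of 2 differences, SW016789 against DMSO at 2 h minus SW016789 against DMSO at 1 h, taken for every gene. It used 12 of the 39 libraries of the series, 3 in each of 4 groups, and 21752 of the 24421 gene symbols counted passed the filter on low counts.

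The groups were MIN6 cells given 5 µM SW016789 for 1 h or 2 h, and MIN6 cells given 0.1% DMSO, the vehicle, for 1 h or 2 h. Thapsigargin, which empties ER calcium stores by blocking the SERCA pump and served as the ER stress control, was given at 100 nM for the same times. Each of 3 independent experiments held 1 library of every group, additions were staggered, and all samples of an experiment were collected together. Every value comes from a single transformed line in bulk culture, in which fewer cells of a type and less RNA per cell cannot be told apart. The p-values measure the spread between the 3 libraries of a group, estimated over all 39 libraries of the series and without pairing by experiment. The labelled cell type was checked against its markers: all 14 β cell markers listed averaged at least 1 CPM (read pairs of a gene scaled by its library's total) in each of the 4 groups, with sums of 28947 to 38566 CPM over the 12 libraries.

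Calcium entry and membrane depolarisation act on excitable cells, β cells included, through kinases that phosphorylate factors already bound to DNA, such as CREB and SRF, so that immediate-early genes are transcribed without new protein synthesis. These genes are short, their transcripts decay quickly, and many encode transcription factors (Fos, Junb, Egr1) or phosphatases and other inhibitors of the same kinases (Dusp1, Spry2). Delayed genes follow once such factors have been translated. A secretory cell whose ER is burdened also runs the unfolded protein response: PERK phosphorylates eIF2α, which lets ATF4 and then CHOP be translated and raises genes of amino acid supply, while ATF6 and IRE1 with XBP1 raise ER chaperones and the machinery of ER-associated degradation (ERAD).

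The 12 libraries held 9150443 to 37704912 counted read pairs. One SW016789 1 h library stood apart: experiment 1 had the lowest total, 9150443, and 36.6% intergenic reads, against 6.27% to 20.6% in the other 11 libraries, and its summed stromal, endothelial and immune markers were 139 CPM against 10.6 to 41.3 CPM elsewhere. The DMSO 2 h library of experiment 2 also stood apart, with reads in 12748 genes against 14513 to 21137 in the other 11 libraries and with no read in 457 of 12417 genes whose median over the 12 libraries was at least 2 CPM. The effect change of the intergenic percentage was -18.3, -2.47 and 0.296 percentage points in experiments 1, 2 and 3. Counts from fits that include this percentage, or leave out libraries above 25%, are given at the end. Its part in the results was not otherwise tested. All genes called below had reads in every one of the 12 libraries. For the change, counts of calls over all genes and in the lists with a call are also given without both of these libraries. Its classes and the list counts at single times are given with them only.

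The SW016789 effect differed between 2 h and 1 h for 58 genes at an adjusted p below 0.05 (edgeR quasi-likelihood test, two-sided, Benjamini-Hochberg over the 21752 genes). Of these, 53 had a higher effect at 2 h, which is 0.244% of the genes tested, and 5 had a lower one, 0.023%. The number at an unadjusted p below 0.05 was 2411. The median log2 change was -0.10 over all genes tested and 0.01 over those with a mean of at least 1 CPM. All 58 had the same sign of change in each of the 3 experiments, which a call on the same libraries makes likely. With the experiment as a block 91 were higher and 13 lower, and without both libraries that stood apart the count was 12, with 11 higher and 1 lower (Chac1, Eif4ebp1, Herpud1, Sesn2, Fam84b, Trib3, Ppargc1a, Creld2, Slc1a4, Mthfd2, Pdia4 and Btg2). Direction was kept by all 58 when any 1 of the 12 libraries was left out, which the selection of these genes also makes likely.

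Sorted by whether SW016789 differed from DMSO at each time, the 58 genes fell into unequal groups. A delayed rise, called higher at 2 h and not at 1 h, was seen for 46 genes, whose median log2 effect was 0.04 at 1 h and 0.81 at 2 h. A further rise, called higher at 1 h with a larger effect at 2 h, was seen for 7 genes (Herpud1, Chac1, Atf4, Spry2, Dusp4, Ifrd1 and Trib3), with medians of 0.77 at 1 h and 1.79 at 2 h. A fading rise was seen for 3 genes, with medians of 1.74 at 1 h and 0.54 at 2 h. Nelfb alone was called lower at 2 h and not at 1 h, and Foxn1 was called at neither time. These classes are a description, since the tests at 1 h, at 2 h and of the change share libraries. SW016789 was called higher than DMSO for 73 genes at 1 h (0.336%) and 414 at 2 h (1.9%), and 62 of the 73 were also called higher at 2 h, so most of the first wave was still raised an hour later. SW016789 was called lower for 8 genes at 1 h (0.0368%) and 148 at 2 h (0.68%). Without both libraries that stood apart, 51 genes were called higher and 2 lower at 1 h, and 282 higher and 31 lower at 2 h. Of the 73, 41 had a positive change and 32 a negative one.

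**Figure D1:**
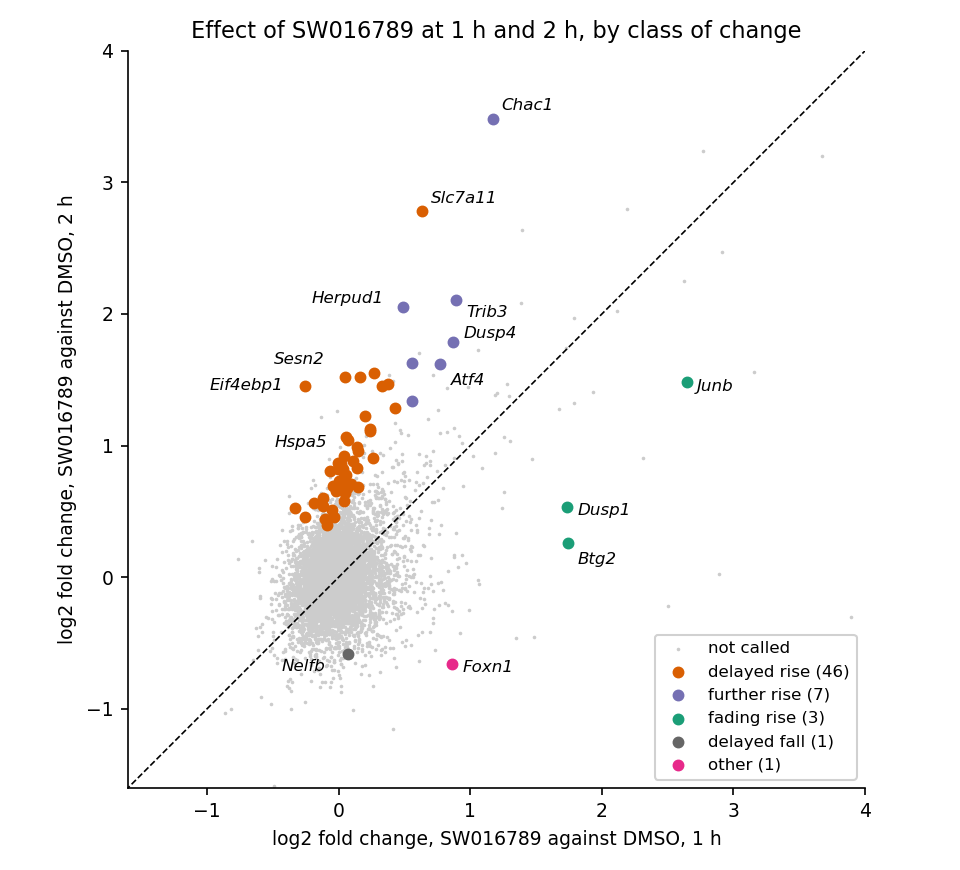
Log2 fold change of SW016789 against DMSO at 1 h (horizontal) and 2 h (vertical), 1 point per gene; coloured points are the 58 called genes by class, grey points are the 9820 genes averaging 10 CPM or more that were not called, of which 1 lies outside the axes. The dashed line marks an equal effect at both times; the 53 genes with a higher effect at 2 h lie above it, and Btg2, Junb, Dusp1, Foxn1 and Nelfb lie below it.

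Genomic span was set out by class as a description, with no test. The median genomic span was 2.88 kb for the 3 genes of the fading rise, 6.64 kb for the 7 of the further rise and 20.1 kb for the 46 of the delayed rise, beside 22.7 kb for all genes tested with a mean of at least 1 CPM.

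Stretches upstream of the annotated start are shown for the called genes whose promoters held a motif of the pathway they belong to. Promoters, taken from RefSeq (build GRCm38.p6, which is mm10) as 250 bases before to 50 bases after each start, were matched for 47 of the 53 genes with a higher effect at 2 h, for all 5 with a lower effect and for 15907 of the genes tested. The ER stress response element (ERSE, here CCAAT and CCACG separated by 9 bases, either strand) was found in 5 of the 47, Hspa5, Creld2, Derl3, Dnajc3 and Syvn1, which is 10.6% of them, and in 0.157% of all 15907. The CEBP-ATF response element (CARE, TGATGCAAT or TGATGAAAC, either strand), which ATF4 can bind, was found in Asns and Iars, 4.26% of the 47, and in 0.377% of all. The cAMP response element (CRE, TGACGTCA) was found in none of the 47, in Btg2 and Dusp1 of the 5 with a lower effect, and in 2.804% of all. Matches to AP-1 (TGACTCA or TGAGTCA) were found in 5 of the 47 (Hspa5, Ippk, Sgms2, Slc7a1 and Srxn1), 10.6%, and in none of the 5, against 5.49% of all. No test was run on these shares, and a match describes the letters only. Capitals mark the motif and each stretch reads 5′ to 3′ in the direction of the gene. The ERSE of Creld2 and Derl3 lies on the opposite strand, so its CCACG reads first, as CGTGG.
Hspa5: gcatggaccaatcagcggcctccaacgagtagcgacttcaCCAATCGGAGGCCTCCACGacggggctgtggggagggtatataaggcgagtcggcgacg
Creld2: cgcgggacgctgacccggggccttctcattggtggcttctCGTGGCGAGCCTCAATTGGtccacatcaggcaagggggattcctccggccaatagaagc
Derl3: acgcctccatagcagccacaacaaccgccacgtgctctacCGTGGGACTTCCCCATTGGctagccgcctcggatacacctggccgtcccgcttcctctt
Dnajc3: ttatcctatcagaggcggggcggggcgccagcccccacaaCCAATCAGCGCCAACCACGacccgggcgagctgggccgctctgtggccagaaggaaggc
Syvn1: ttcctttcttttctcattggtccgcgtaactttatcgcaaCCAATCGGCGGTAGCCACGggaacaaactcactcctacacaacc
Asns: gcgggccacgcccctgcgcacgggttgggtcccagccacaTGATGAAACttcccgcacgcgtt
Btg2: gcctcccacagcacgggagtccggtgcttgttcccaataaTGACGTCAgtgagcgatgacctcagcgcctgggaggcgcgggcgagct
Dusp1: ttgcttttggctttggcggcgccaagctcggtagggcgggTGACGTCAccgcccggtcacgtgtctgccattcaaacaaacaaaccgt
The stretches are chr2:34771985-34772083, plus strand (Hspa5), chr15:88819480-88819578, plus strand (Creld2), chr10:75893202-75893300, plus strand (Derl3), chr14:118937787-118937885, plus strand (Dnajc3), chr19:6046492-6046575, plus strand (Syvn1), chr6:7693210-7693272, minus strand (Asns), chr1:134079274-134079361, minus strand (Btg2) and chr17:26508568-26508655, minus strand (Dusp1). The motif begins 65 bases upstream of the start in Hspa5, 44 in Syvn1, 126 in Creld2 and 156 in Derl3.

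The fading rise was led by Btg2, an antiproliferative gene that promotes mRNA deadenylation. Its levels, listed here and below in the order of experiments 1, 2 and 3, were 217, 305 and 232 CPM with SW016789 and 85.4, 66.4 and 74.4 CPM with DMSO at 1 h, and 86.0, 90.1 and 82.7 CPM with SW016789 and 74.2, 67.1 and 74.9 CPM with DMSO at 2 h. The SW016789 1 h libraries were far above the other 9, and the SW016789 and DMSO libraries at 2 h lay close together without overlapping. The log2 change was -1.48 ± 0.19 (SE, adjusted p = 1.40e-05), and the effect went to 0.26 at 2 h, which was not called (adjusted p = 0.46), after 1.74 at 1 h. Dusp1, which dephosphorylates ERK, p38 and JNK, had 185, 207 and 159 CPM with SW016789 and 67.9, 46.4 and 51.5 CPM with DMSO at 1 h, and 69.7, 67.2 and 60.9 CPM with SW016789 and 51.5, 41.3 and 43.5 CPM with DMSO at 2 h. Its log2 effect was 1.73 at 1 h and 0.54 at 2 h, called at both times, and the change was -1.20 ± 0.21 (SE, adjusted p = 0.00232). Junb, an AP-1 subunit, had 205, 196 and 152 CPM with SW016789 and 37.4, 23.02 and 27.96 CPM with DMSO at 1 h, and 49.4, 50.8 and 39.9 CPM with SW016789 and 21.2, 13.1 and 15.8 CPM with DMSO at 2 h. Every SW016789 library stood above every DMSO library at both times, the DMSO level itself was lower at 2 h, and the change was -1.16 ± 0.24 (SE, adjusted p = 0.0135). Without both libraries that stood apart the change was -1.55 for Btg2 (adjusted p = 0.00178), -1.19 for Dusp1 (adjusted p = 0.056) and -1.16 for Junb (adjusted p = 0.0874), so only Btg2 was still called. Btg2 and Dusp1 are the pair with the CRE shown above.

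The values of the other 2 genes with a lower effect at 2 h moved with the libraries that stood apart. Nelfb, a subunit of the complex that pauses RNA polymerase II near promoters, had 39.6, 35.4 and 32.7 CPM with SW016789 and 31.5, 35.9 and 34.4 CPM with DMSO at 1 h, and 31.7, 32.8 and 31.1 CPM with SW016789 and 40.4, 61.4 and 41.6 CPM with DMSO at 2 h. The highest of the 12 values was the DMSO 2 h library of experiment 2, the one with many genes without a read. The change was -0.66 ± 0.15 (SE, adjusted p = 0.0443) with it, and -0.30 without both libraries that stood apart (adjusted p = 1). Foxn1, a transcription factor of thymic epithelium, had 22.6, 11.9 and 9.82 CPM with SW016789 and 7.99, 8.25 and 7.85 CPM with DMSO at 1 h, and 7.74, 8.52 and 5.82 CPM with SW016789 and 8.60, 16.2 and 10.04 CPM with DMSO at 2 h. Its change of -1.52 ± 0.34 (SE, adjusted p = 0.0319) became -0.71 without both libraries (adjusted p = 1). The next genes by size with a mean of at least 1 CPM, an unadjusted p below 0.05 and 1 sign in all experiments did not pass. Csf3r, the G-CSF receptor, had 8.18, 1.80 and 0.0553 CPM with SW016789 and 0.109, 0 and 0 CPM with DMSO at 1 h, highest in the SW016789 1 h library of experiment 1, and its log2 change was -7.74 (adjusted p = 0.37) and -6.41 without both libraries that stood apart (adjusted p = 1). Nrip2 (-7.17, adjusted p = 0.412) and Mylk3, a myosin light chain kinase (-6.79, adjusted p = 0.37), were highest among the 12 libraries in that same one.

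Among 27 immediate-early transcription factors and related genes, all tested, Btg2 and Junb had a lower effect at 2 h and none a higher one. The median change was -0.44, against -0.10 over all genes and 0.01 over those with a mean of at least 1 CPM, a level that all 27 reach. SW016789 was called higher for 17 of the 27 at 1 h and for 18 at 2 h, against 0.336% and 1.9% of all genes tested. Most of the list was thus called raised at each time. Fos, the AP-1 subunit that gives the immediate-early class its standard marker, had 371, 328 and 234 CPM with SW016789 and 45.1, 27.6 and 32.3 CPM with DMSO at 1 h, and 81.4, 70.0 and 54.6 CPM with SW016789 and 30.4, 22.6 and 17.01 CPM with DMSO at 2 h. Each SW016789 library exceeded each DMSO library at both times, and the log2 effect was 3.15 at 1 h and 1.56 at 2 h. The change of -1.596 ± 0.41 (SE, adjusted p = 0.0968) did not pass. Egr1, a zinc finger factor, had 940.5, 889 and 638 CPM with SW016789 and 191, 181 and 124.6 CPM with DMSO at 1 h, and 331, 296 and 209 CPM with SW016789 and 183, 170.2 and 93.4 CPM with DMSO at 2 h, with a change of -1.41 ± 0.34 (SE, adjusted p = 0.072). Arc, a regulator of synaptic receptor traffic that is counted among the signalling genes below, had a change of -1.43 ± 0.35 (SE, adjusted p = 0.0773). With the experiment as a block these 3 were called, at -1.59 for Fos (adjusted p = 6.15e-04), -1.39 for Egr1 (adjusted p = 2.14e-04) and -1.41 for Arc (adjusted p = 0.0381). Without both libraries that stood apart none of the 3 was called, at -1.40 for Fos (adjusted p = 0.749), -1.12 for Egr1 and -0.72 for Arc. With 1 library left out, Fos and Egr1 were called in 0 of 12 fits and Arc in 2.

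Fosb, Nr4a3 and Nr4a1 were called higher at both times with no called change. Fosb had 253, 197 and 142 CPM with SW016789 and 16.4, 13.1 and 16.7 CPM with DMSO at 1 h, and 108.5, 112.4 and 74.4 CPM with SW016789 and 10.9, 5.37 and 15.6 CPM with DMSO at 2 h, with log2 effects of 3.68 at 1 h and 3.20 at 2 h and a change of -0.47 ± 0.30 (SE, adjusted p = 0.54). Its SW016789 and DMSO libraries did not overlap at either time. Nr4a3, an orphan nuclear receptor, had 222, 248 and 195 CPM with SW016789 and 45.1, 24.97 and 28.1 CPM with DMSO at 1 h, and 318, 331 and 197 CPM with SW016789 and 33.3, 40.2 and 16.5 CPM with DMSO at 2 h, and its change was 0.47 ± 0.38 (SE, adjusted p = 0.618). For Nr4a1, of the same family, the levels were 1427, 1478 and 1237 CPM with SW016789 and 423, 204 and 281 CPM with DMSO at 1 h, and 862, 778 and 633 CPM with SW016789 and 149.9, 70.6 and 106.7 CPM with DMSO at 2 h, and the change of 0.61 ± 0.39 (SE, adjusted p = 0.549) came with a lower DMSO level at 2 h. Npas4, an activity-dependent factor of neurons and β cells, had a change of -0.38 (adjusted p = 0.77), Atf3 of -0.44 (adjusted p = 0.51), Egr2 of -0.995 (adjusted p = 0.707), Egr3 of -0.92 (adjusted p = 0.767) and Myc of 1.41 (adjusted p = 0.432). A p above the threshold does not show that these effects were equal: the SE of the change was 0.301 for Fosb, 0.394 for Nr4a1 and 1.003 for Egr2.

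**Figure D2:**
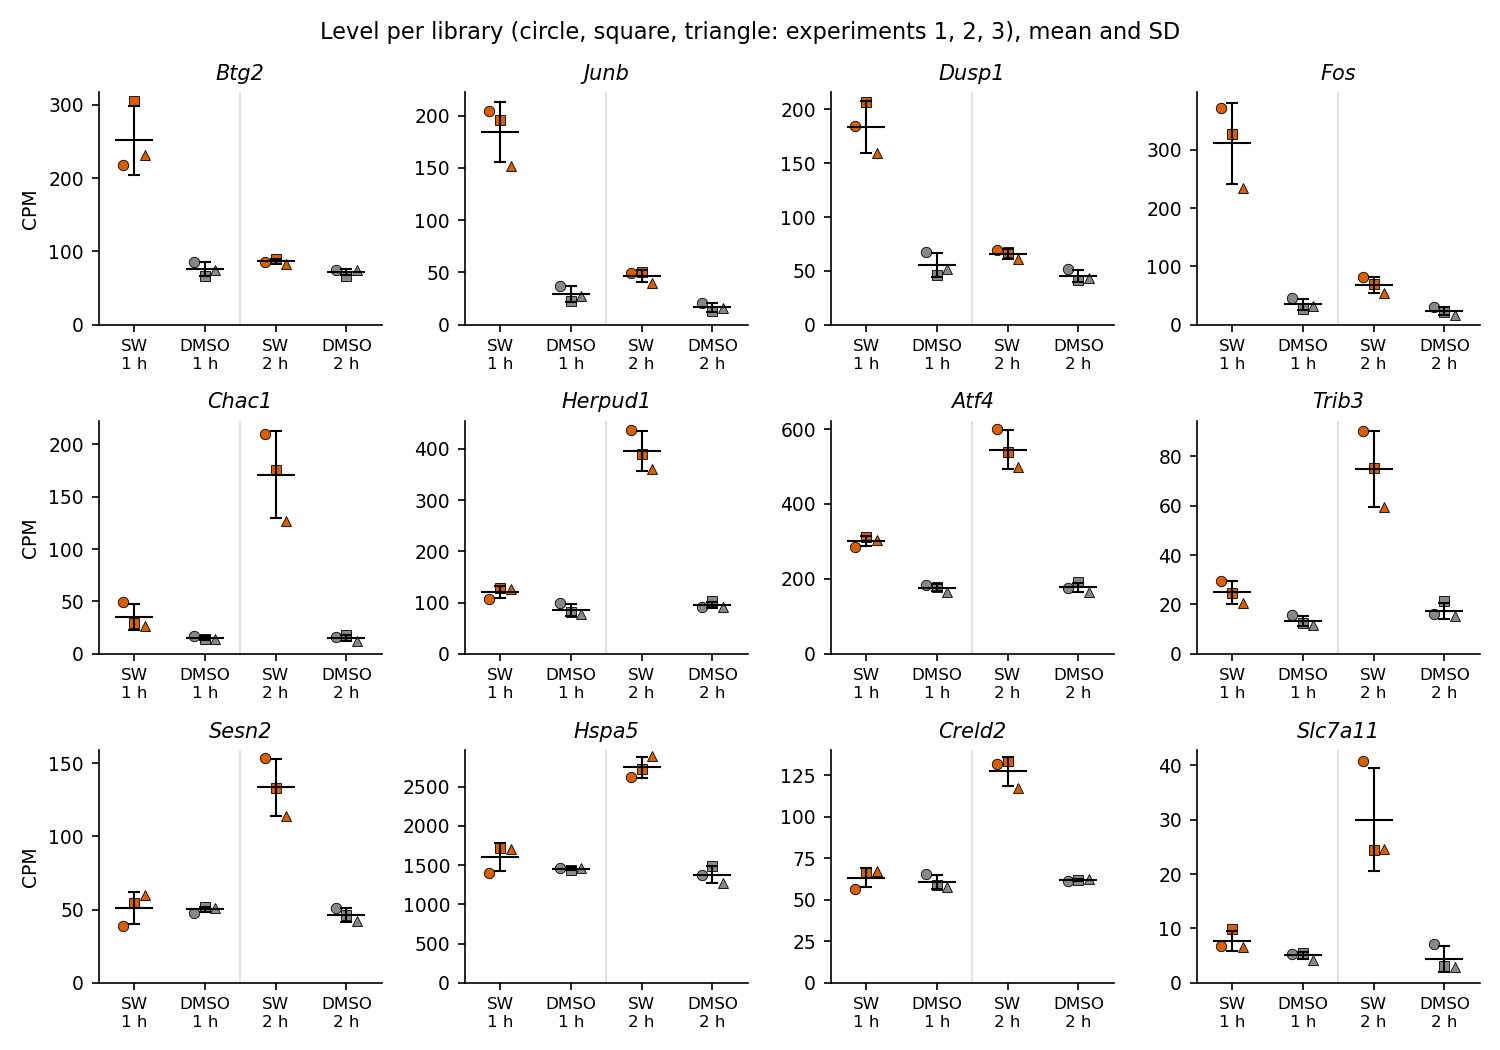
Level in CPM of 12 genes in each of the 12 libraries; circles, squares and triangles are experiments 1, 2 and 3, the bar is the mean and the whiskers the SD of 3 libraries, and each axis starts at 0. Btg2, Junb, Dusp1 and Fos are highest with SW016789 at 1 h, and Chac1, Herpud1, Atf4, Trib3, Sesn2, Hspa5, Creld2 and Slc7a11 are highest with SW016789 at 2 h.

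The 38 early feedback and signalling genes split: Dusp1 had a lower effect at 2 h, and Dusp4, Dusp14, Spry2, Rgs4 and Homer1 a higher one, with a median change of 0.10 over the list. Dusp4, a nuclear MAP kinase phosphatase, had 111.97, 116.96 and 123.4 CPM with SW016789 and 73.4, 54.8 and 64.6 CPM with DMSO at 1 h, and 218, 218 and 194 CPM with SW016789 and 69.0, 60.7 and 52.6 CPM with DMSO at 2 h, and its change was 0.92 ± 0.18 (SE, adjusted p = 0.00879). Spry2, which restrains receptor tyrosine kinase signalling, had 33.3, 32.7 and 30.6 CPM with SW016789 and 24.5, 22.01 and 18.99 CPM with DMSO at 1 h, and 60.9, 57.9 and 47.8 CPM with SW016789 and 18.9, 15.4 and 19.5 CPM with DMSO at 2 h, and its change was 1.07 ± 0.19 (SE, adjusted p = 0.00232). Both were called higher at 1 h and at 2 h, with no overlap between SW016789 and DMSO libraries at 2 h. The 2 MAP kinase phosphatases Dusp1 and Dusp4 thus changed in opposite directions over the hour. Rgs4, a GTPase-activating protein for G protein α subunits, changed by 0.87 ± 0.16 (SE, adjusted p = 0.00327), and Homer1, a scaffold of postsynaptic receptors with an activity-induced short form, by 0.86 ± 0.15 (SE, adjusted p = 0.00203). Dusp14, another phosphatase of the family, had 32.2, 35.9 and 34.04 CPM with SW016789 and 29.2, 24.8 and 24.8 CPM with DMSO at 1 h, and 43.2, 48.8 and 46.4 CPM with SW016789 and 17.7, 11.5 and 20.7 CPM with DMSO at 2 h. Its change of 1.09 ± 0.23 (SE, adjusted p = 0.0154) was made up of 0.44 in the SW016789 libraries and -0.66 in the DMSO libraries, so the lower DMSO level at 2 h gave the larger part. Ier3, an early response gene, had a change of 0.08 (adjusted p = 0.939), the mRNA decay factor Zfp36l1 -2.07 (adjusted p = 0.584) and the Ras-like GTPase Rasd1 -1.20 (adjusted p = 0.4). Without both libraries that stood apart no gene of this list was called, and with the experiment as a block 8 were.

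Of 18 CREB and cAMP-responsive genes, Ppargc1a alone was called, higher at 2 h, and the list median was 0.24. Ppargc1a, a coactivator of mitochondrial and gluconeogenic genes and a target of CREB in liver, had 49.9, 44.3 and 48.6 CPM with SW016789 and 40.9, 32.1 and 40.4 CPM with DMSO at 1 h, and 124.3, 116.1 and 104.3 CPM with SW016789 and 47.1, 35.97 and 42.7 CPM with DMSO at 2 h. Its SW016789 and DMSO libraries did not overlap at either time, only the difference at 2 h was called, and the change was 1.12 ± 0.17 (SE, adjusted p = 3.84e-04), which was called under every alternative run. Crem, whose ICER form represses cAMP-responsive genes, had log2 effects of 0.67 at 1 h and 0.76 at 2 h, with a change of 0.09 (adjusted p = 0.864). Nfil3 had a change of 0.70 (adjusted p = 0.243), Bdnf of 0.89 (adjusted p = 0.678) and Inhba of 0.70 (adjusted p = 0.83).

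The PERK/ATF4/CHOP list had the highest median change and held Chac1, the largest increase among the 58 genes. Of its 24 members, all tested, 9 had a higher effect at 2 h and none a lower one, and the median change was 0.68. Chac1, which degrades glutathione and is induced by ATF4 and CHOP, had 49.0, 29.4 and 26.7 CPM with SW016789 and 17.3, 14.5 and 13.7 CPM with DMSO at 1 h, and 209.7, 176 and 127 CPM with SW016789 and 15.6, 18.03 and 12.2 CPM with DMSO at 2 h. The SW016789 libraries were above the DMSO libraries at both times, on average 2.26-fold at 1 h and 11.2-fold at 2 h in the fitted model, and the log2 change was 2.31 ± 0.27 (SE, adjusted p = 2.96e-06). Atf4, which encodes the factor itself, had 286, 312 and 304 CPM with SW016789 and 184, 179 and 166 CPM with DMSO at 1 h, and 599.7, 538 and 497 CPM with SW016789 and 176, 191 and 166 CPM with DMSO at 2 h, and its change was 0.85 ± 0.14 (SE, adjusted p = 0.00162). Trib3, a pseudokinase that CHOP and ATF4 induce, had 29.7, 24.5 and 20.4 CPM with SW016789 and 15.5, 12.4 and 11.8 CPM with DMSO at 1 h, and 90.3, 75.2 and 59.6 CPM with SW016789 and 15.99, 21.2 and 15.1 CPM with DMSO at 2 h, with a change of 1.21 ± 0.24 (SE, adjusted p = 0.00939). In these genes the SW016789 and DMSO libraries were apart at 1 h and farther apart at 2 h. Herpud1, a membrane component of ERAD that ATF4 and ATF6 both induce, had 107.2, 129 and 126 CPM with SW016789 and 99.3, 81.3 and 77.2 CPM with DMSO at 1 h, and 436, 391 and 359.8 CPM with SW016789 and 91.2, 102.8 and 91.6 CPM with DMSO at 2 h. Its change of 1.56 ± 0.16 (SE, adjusted p = 1.45e-07) had the lowest adjusted p among the 58 genes.

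Sesn2, Slc7a11 and Eif4ebp1, other targets of ATF4, started from no called effect at 1 h. Sesn2, a leucine sensor upstream of mTORC1, had 39.1, 54.6 and 60.1 CPM with SW016789 and 47.9, 51.7 and 50.9 CPM with DMSO at 1 h, and 153, 133 and 113.8 CPM with SW016789 and 51.3, 46.2 and 41.9 CPM with DMSO at 2 h. The treatments overlapped at 1 h, whereas at 2 h the lowest SW016789 library held 113.8 CPM and the highest DMSO library 51.3 CPM, for a change of 1.48 ± 0.17 (SE, adjusted p = 2.08e-06). Slc7a11, the cystine and glutamate exchanger, had 6.85, 9.88 and 6.53 CPM with SW016789 and 5.36, 5.49 and 4.204 CPM with DMSO at 1 h, and 40.9, 24.4 and 24.7 CPM with SW016789 and 7.10, 3.12 and 2.87 CPM with DMSO at 2 h, and its change was 2.15 ± 0.41 (SE, adjusted p = 0.00633). Eif4ebp1, a repressor of cap-dependent translation, had 5.83, 9.04 and 8.96 CPM with SW016789 and 10.9, 8.70 and 9.58 CPM with DMSO at 1 h, and 24.8, 22.3 and 18.1 CPM with SW016789 and 10.1, 7.12 and 6.53 CPM with DMSO at 2 h. It was slightly lower than DMSO at 1 h, at -0.25 on the log2 scale and not called, and its change was 1.71 ± 0.22 (SE, adjusted p = 1.40e-05). Asns, asparagine synthetase, whose CARE is shown above, changed by 0.61 ± 0.12 (SE, adjusted p = 0.0077), and Aldh1l2, a mitochondrial folate dehydrogenase, by 0.75 ± 0.16 (SE, adjusted p = 0.0221). Ddit3, which encodes CHOP, had 34.9, 38.9 and 26.3 CPM with SW016789 and 14.3, 12.2 and 11.5 CPM with DMSO at 1 h, and 106.05, 98.2 and 67.0 CPM with SW016789 and 12.5, 18.98 and 12.1 CPM with DMSO at 2 h. All its SW016789 libraries were above the DMSO libraries at both times, but the change of 1.25 ± 0.30 (SE, adjusted p = 0.0658) did not pass, and was 1.23 with the experiment as a block (adjusted p = 0.0011). Without both libraries that stood apart the change of Ddit3 was 1.59 (adjusted p = 0.055) and was not called. Ppp1r15a, the eIF2α phosphatase subunit GADD34, rose at both times, with log2 effects of 0.83 and 1.44 at 1 h and 2 h, and its change of 0.61 did not pass (adjusted p = 0.178). Of the list, 12 genes were called with the experiment as a block and 5 without both libraries that stood apart.

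Genes of amino acid supply followed. Of 16 serine and one-carbon genes 5 had a higher effect at 2 h (Psat1 and Shmt2 of serine and glycine synthesis, Mthfd2 and Aldh1l2 of mitochondrial folate metabolism, and Aldh18a1 of proline synthesis), with changes of 0.66 to 0.77 and a list median of 0.41. Mthfd2 had 67.3, 66.9 and 68.8 CPM with SW016789 and 62.6, 63.0 and 62.4 CPM with DMSO at 1 h, and 127, 111.2 and 113.4 CPM with SW016789 and 54.1, 73.0 and 63.4 CPM with DMSO at 2 h, and its change was 0.77 ± 0.12 (SE, adjusted p = 6.84e-04). Of 16 amino acid transporters 3 were called, Slc7a11, the neutral amino acid carrier Slc1a4 at 0.83 and the cationic carrier Slc7a1 at 0.81, with a list median of 0.33. Of 20 cytosolic aminoacyl-tRNA synthetases Iars (0.70) and Sars (0.54) were called, 19 of the 20 had a positive change and the list median was 0.33. Cars at 0.69 and Yars at 0.54 did not pass (adjusted p = 0.173 and 0.0836). With the experiment as a block 7 synthetases and 5 transporters were called. Without both libraries that stood apart no synthetase, 1 transporter (Slc1a4) and 1 gene of the serine and one-carbon list (Mthfd2) were. None of the synthetases was called at 1 h, which is near the background of 0.336% called higher. At 2 h 11 were called higher, against 1.9% of all genes tested. Where a list member had a large negative value, as Slc43a1 at -4.26, Slc38a1 at -1.47 and Aldh1l1 at -3.08, it did not pass (adjusted p = 0.542, 0.564 and 0.371).

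ER chaperone genes responded between 1 h and 2 h. Of 21 genes of the ATF6 and chaperone list, 8 had a higher effect at 2 h (Hspa5, Pdia4, Creld2, Sdf2l1, Manf, Dnajb11, Dnajc3 and Dnajb9), none a lower one, and the median change was 0.43. None of the 21 was called at 1 h and 13 were called higher at 2 h, against 0.336% and 1.9% of all genes tested. In a list of this size no call at 1 h is near the background. Hspa5 encodes BiP, the main HSP70 chaperone of the ER, and had 1400.3, 1717 and 1701 CPM with SW016789 and 1467, 1431 and 1465 CPM with DMSO at 1 h, and 2628, 2718 and 2885 CPM with SW016789 and 1378, 1489.9 and 1269 CPM with DMSO at 2 h. The groups overlapped at 1 h and were apart at 2 h, where the lowest SW016789 library held 2628 CPM and the highest DMSO library 1489.9 CPM, and the change was 0.85 ± 0.14 (SE, adjusted p = 6.84e-04). Creld2, a stress-inducible protein of the ER, had 56.8, 66.2 and 67.2 CPM with SW016789 and 65.4, 58.9 and 57.8 CPM with DMSO at 1 h, and 131, 133 and 117.3 CPM with SW016789 and 61.2, 62.0 and 62.3 CPM with DMSO at 2 h. It too overlapped at 1 h and was apart at 2 h, and the change was 0.97 ± 0.14 (SE, adjusted p = 1.27e-04). Sdf2l1, a BiP cofactor, had 58.6, 64.8 and 71.0 CPM with SW016789 and 63.2, 61.8 and 67.6 CPM with DMSO at 1 h, and 105.2, 110.9 and 123.5 CPM with SW016789 and 60.3, 63.6 and 63.3 CPM with DMSO at 2 h, and changed by 0.84 ± 0.15 (SE, adjusted p = 0.00236). The J-domain cochaperones changed by 0.88 for Dnajb9, 0.49 for Dnajb11 and 0.48 for Dnajc3, the disulfide isomerase Pdia4 by 0.66 and the secreted ER stress factor Manf by 0.73. Hspa5, Creld2 and Dnajc3 carry the ERSE shown above, and of the 17 genes of this list with a matched promoter 7 carry one. The other carriers, Calr, Canx, Hsp90b1 and Pdia6, had no called change. With the experiment as a block 10 genes of the list were called, and without both libraries that stood apart 2 were, Creld2 and Pdia4. Fkbp11, a prolyl isomerase of the ER, had -0.87 and did not pass (adjusted p = 0.346).

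In ERAD, 5 of 30 genes had a higher effect at 2 h, and the list median was 0.25. They were Derl3, a derlin of the retrotranslocation complex, Syvn1, the ubiquitin ligase HRD1, its partner Sel1l, Herpud1, and Sdf2l1, which is also on the chaperone list. Derl3 had 16.3, 17.96 and 14.1 CPM with SW016789 and 14.9, 12.9 and 12.3 CPM with DMSO at 1 h, and 45.2, 44.3 and 22.1 CPM with SW016789 and 16.3, 10.4 and 11.3 CPM with DMSO at 2 h, and its change was 1.28 ± 0.29 (SE, adjusted p = 0.0319). Its treatments overlapped at 1 h and not at 2 h, where experiment 3 gave the lowest of the SW016789 values. Sel1l changed by 0.56 ± 0.11 (SE, adjusted p = 0.00528) and Syvn1 by 0.69 ± 0.15 (SE, adjusted p = 0.0237). Herpud1 alone of the 30 was called higher at 1 h and 8 were at 2 h, against 0.336% and 1.9% of all genes tested. The 25 genes of the IRE1/XBP1 list, mostly parts of the translocon, signal peptidase and oligosaccharyl transferase, had a median change of 0.19 with Dnajb9 alone called. Xbp1 itself had a change of 0.39 (adjusted p = 0.335), the gene for IRE1, Ern1, of 0.50 (adjusted p = 0.249) and Sec62 of 0.42 (adjusted p = 0.25). Counts per gene do not tell spliced from unspliced Xbp1. Without both libraries that stood apart Herpud1 was the only ERAD gene called, and no gene of the IRE1/XBP1 list was.

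**Figure D3:**
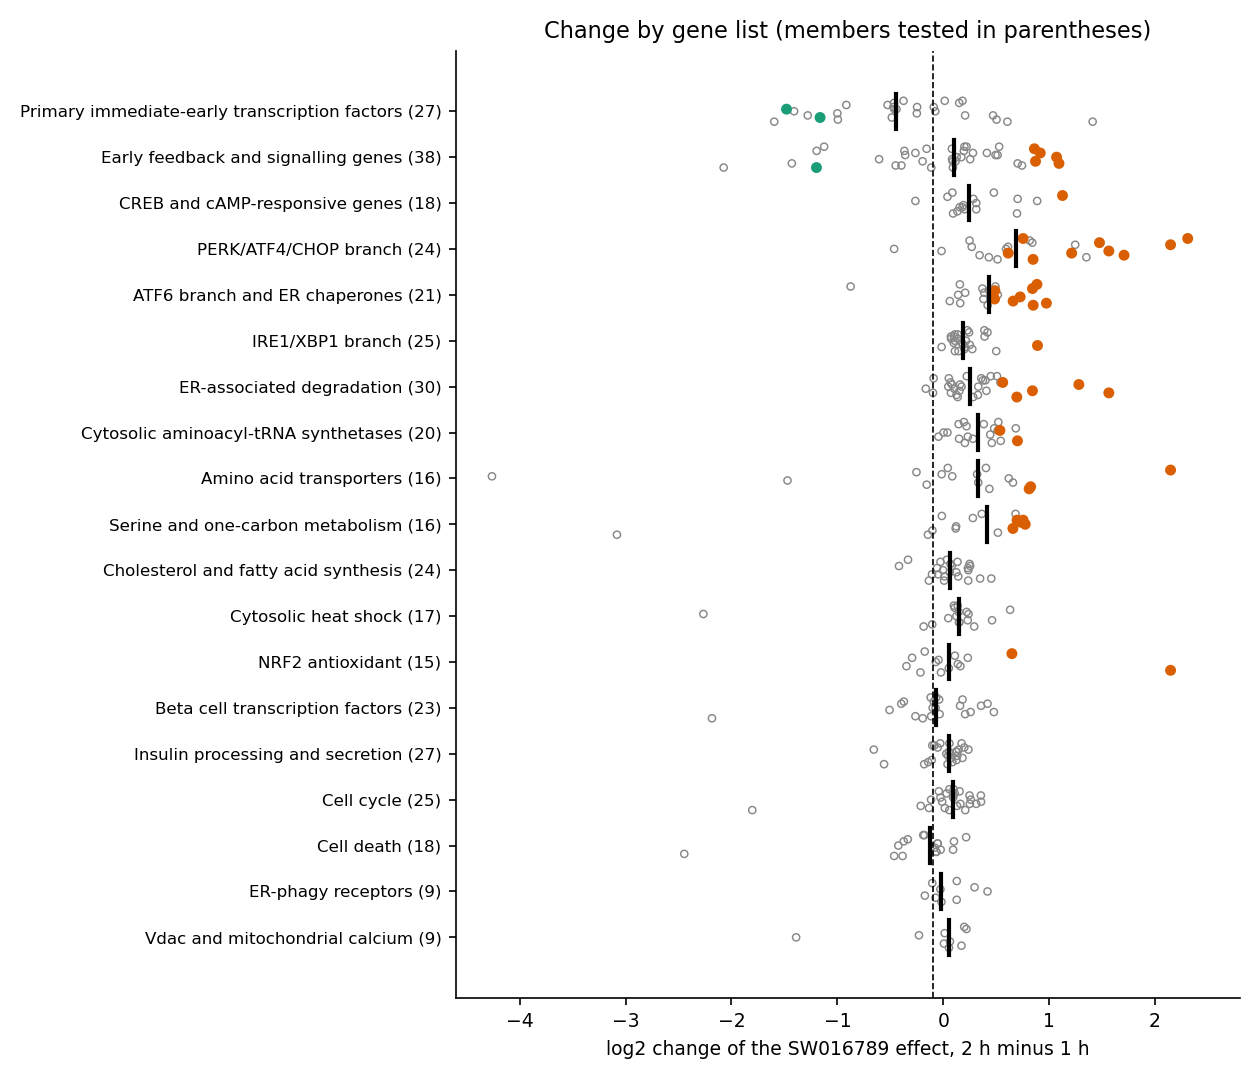
Log2 change of the SW016789 effect, 2 h minus 1 h, for members of 19 gene lists with a mean of at least 1 CPM; filled points were called (orange higher, green lower), open points were not, black bars are the medians over all tested members and the dashed line is the median of all genes, -0.10. The PERK/ATF4/CHOP list has the highest median, 0.68, and the immediate-early list the lowest, -0.44.

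Several genes of the delayed rise are on none of the stress lists. Fam84b had 23.9, 26.1 and 21.7 CPM with SW016789 and 22.99, 20.7 and 20.3 CPM with DMSO at 1 h, and 72.9, 63.1 and 57.1 CPM with SW016789 and 29.97, 15.9 and 21.3 CPM with DMSO at 2 h, and its change was 1.36 ± 0.20 (SE, adjusted p = 2.95e-04). Cckbr, the receptor for cholecystokinin and gastrin, changed by 1.03 ± 0.22 (SE, adjusted p = 0.0266), and Rbm15b, an RNA-binding subunit of the m6A methyltransferase complex, by 1.01 ± 0.18 (SE, adjusted p = 0.00236). Sik2, a salt-inducible kinase that restrains CREB coactivators, changed by 0.87, the zinc finger factor Hivep2 by 0.87, the sphingomyelin synthase Sgms2 by 0.73, the zinc transporter Slc30a4 by 0.62 and the splicing regulator Srrm4 by 0.72. The remaining called genes, Rnf217, Stk32a, Ippk, Mast4, Piga, Tmem263 and Rsbn1, changed by 0.54 to 0.79. Srxn1, a sulfiredoxin, changed by 0.65 and with Slc7a11 was called among 15 NRF2 antioxidant genes, whose median was 0.05. Neither Srxn1 nor Slc7a11 was called without both libraries that stood apart. The change came mainly from the SW016789 libraries in 50 of the 53 genes. It came mainly from DMSO libraries that were lower at 2 h in Dusp14, Tprkb and Rhou, with 0.32 in SW016789 and -0.54 in DMSO for Tprkb and 0.41 and -0.47 for Rhou. At 2 h every SW016789 library exceeded every DMSO library for all 53, which is close to what the call itself requires, and at 1 h this held for 16.

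Genes of β cell identity and secretion showed no called change. None of the 27 genes of insulin processing and release, 23 transcription factors of the β cell, 24 cholesterol and fatty acid genes, 17 cytosolic heat shock genes, 25 cell cycle genes, 18 cell death genes, 9 ER-phagy receptors or 9 VDAC and mitochondrial calcium genes was called, and their median changes lay between -0.13 and 0.15. With 0.244% and 0.023% of all genes called, a count of 0 in lists of this size is near the background, and single members ranged from -5.16 to 0.77. By edgeR 14 of these 152 entries had an unadjusted p below 0.05, beside 2411 of all 21752 genes tested. DESeq2 called 3 of the 152, the sterol synthase Lss, the chaperone Hspa4l and the cell death gene Bcl2l11, beside 223 genes in all. Ins1 had a change of 0.04 ± 0.249 (SE), Ins2 of 0.15 ± 0.181 and Mafa, an activator of insulin transcription, of 0.42 ± 0.248, with adjusted p of 0.981, 0.771 and 0.51. Vdac1, which encodes the voltage-dependent anion channel that the study examined as a target of SW016789, had a change of 0.05 ± 0.135 (adjusted p = 0.905). Fam134c, an ER-phagy receptor, was called lower at both times, with 44.6, 59.0 and 54.5 CPM with SW016789 and 93.9, 96.3 and 98.5 CPM with DMSO at 1 h, and 55.5, 51.7 and 53.2 CPM with SW016789 and 98.5, 119.6 and 110.6 CPM with DMSO at 2 h. Its SW016789 libraries were below its DMSO libraries at each time, and the change between times was -0.17 ± 0.13 (SE, adjusted p = 0.598). Large negative values on these lists that did not pass included those of Ccnd1 at -1.80 (SE 1.82) and Hspb1 at -2.27 (SE 0.93). Among markers of other cell types, the 9 of other islet cells summed to 576 to 694 CPM with SW016789 and 589 to 646 CPM with DMSO at 1 h. At 2 h they summed to 584 to 684 CPM with SW016789 and 566 to 645 CPM with DMSO. Ttr, Gcg and Irx2 were the highest of the 9 in each group, and no marker of other islet cells was called. The 17 acinar and ductal markers summed to 108.7 to 174 CPM with SW016789 and 111.9 to 122.8 CPM with DMSO at 1 h, and 103.9 to 121.3 CPM with SW016789 and 79.8 to 120.97 CPM with DMSO at 2 h. The 18 stromal, endothelial and immune markers summed to 12.8 to 139 CPM with SW016789 and 14.7 to 27.5 CPM with DMSO at 1 h, and 14.8 to 29.7 CPM with SW016789 and 10.6 to 35.1 CPM with DMSO at 2 h. None of these last 2 lists was called, and DESeq2 called 0. By edgeR 3 of their 35 members had an unadjusted p below 0.05, beside 2411 of all 21752 genes tested. Their medians were -3.15 and -1.74, and their high values were those of the SW016789 1 h library of experiment 1.

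Libraries of 6 h and 24 h showed where the classes went next. Their levels do not enter the change, but they share in the dispersion estimate behind its calls. Of the 53 genes with a higher effect at 2 h, 47 were called higher with SW016789 at 6 h, 88.7% against 4.19% of all genes tested. Those not called were Rnf217, Dusp14, Homer1, Srrm4, Tprkb and Sik2. The delayed rise had a median log2 effect of 1.13 at 6 h and 0.31 at 24 h, and 29 of its 46 genes had a larger effect at 6 h than at 2 h. Slc7a11 reached 3.14 at 6 h, Derl3 2.71, Eif4ebp1 2.59 and Creld2 2.08. All 7 genes of the further rise were called at 6 h, with a median of 1.45, and Trib3 alone was larger at 6 h than at 2 h. The 3 genes of the fading rise had a median of -0.13 at 6 h and none was called in either direction, where 2.85% of all genes were called lower. At 6 h 19 of the 24 PERK/ATF4/CHOP genes, 18 of the 21 chaperone genes, 18 of the 30 ERAD genes and 21 of the 25 IRE1/XBP1 genes were called higher, against 5 of the 27 immediate-early genes.

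**Figure D4:**
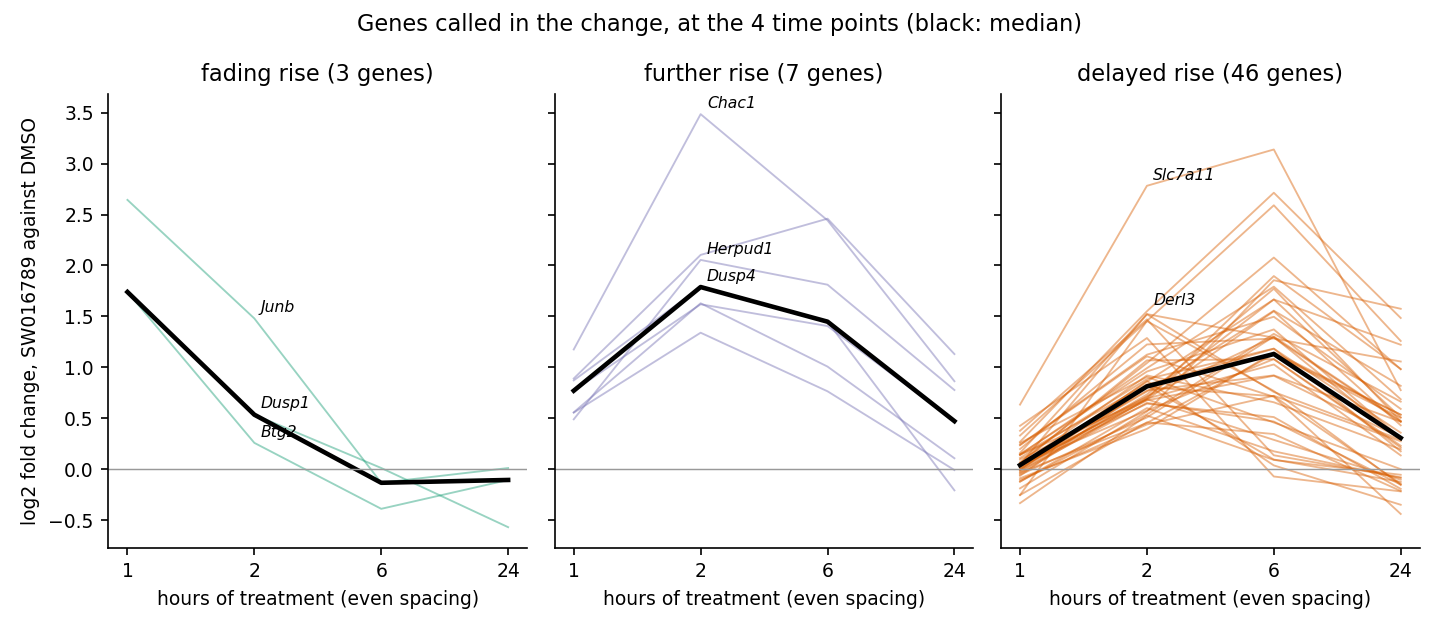
Log2 fold change of SW016789 against DMSO at 1, 2, 6 and 24 h (evenly spaced) for the genes of 3 classes; thin lines are genes and the black line is the median. The fading rise has medians of 1.74, 0.54, -0.13 and -0.10, the further rise 0.77, 1.79, 1.45 and 0.47, and the delayed rise 0.04, 0.81, 1.13 and 0.31; the first pair of times is the one the genes were chosen on.

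Thapsigargin over the same hour served to ask which changes differed between the treatments. The change of SW016789 minus the change of thapsigargin, 2 h minus 1 h in each, was called for 16 genes (0.0736% of those tested), 11 higher and 5 lower in SW016789. DMSO cancels from this difference and does not enter it. Higher in SW016789 were the ER chaperone and ERAD genes Creld2, Sdf2l1, Manf, Pdia4 and Herpud1, and Ppargc1a, Rbm15b, Sgms2, Rgs4, Mast4 and Slc30a4. Creld2 had a log2 value of 2 h against 1 h of 1.001 with SW016789 and 0.09 with thapsigargin, a difference of 0.91 ± 0.14 (SE, adjusted p = 8.56e-04). For Ppargc1a the values were 1.27 and 0.22 in the same order, and for Herpud1 1.71 and 0.98. Lower in SW016789 were the early genes Btg2, Junb, Jun and Atf3 and the sterol regulator Insig1. Atf3 had -0.59 with SW016789 and 1.13 with thapsigargin, a difference of -1.72 (adjusted p = 5.20e-04). No difference was called for Chac1, Trib3 or Atf4. Chac1 had 2.32 with SW016789 and 2.52 with thapsigargin, a difference of -0.20 ± 0.26 (SE), Trib3 had 1.61 with SW016789 and 1.82 with thapsigargin, a difference of -0.21 ± 0.236 (SE) and Atf4 had 0.86 with SW016789 and 0.81 with thapsigargin, a difference of 0.05 ± 0.142 (SE), and a difference within these errors does not show that the treatments act alike. Intergenic reads made up 33.2% of the thapsigargin 1 h library of experiment 2, and 27.2% and 30.9% of the thapsigargin 2 h libraries of experiments 1 and 3. Beyond the fits given below, their part in the difference was not tested. The count of 16 became 0 in a fit of the libraries compared alone, 2 without the thapsigargin 2 h library of experiment 3, 4 without both libraries that stood apart and 27 with the experiment as a block. It was also 2 without the libraries above 25% intergenic reads, a setting that leaves 1 thapsigargin 2 h library, which is then assumed to vary like the other groups.

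**Figure D5:**
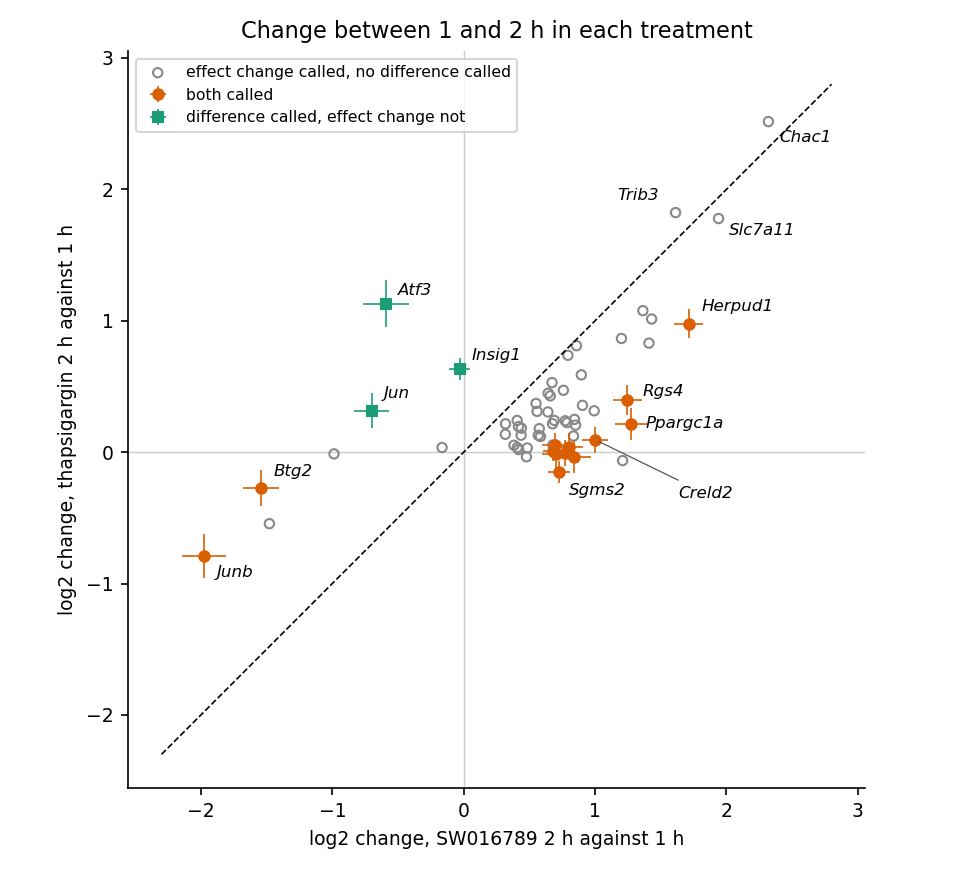
Log2 change from 1 h to 2 h with SW016789 (horizontal) and with thapsigargin (vertical) for the 58 called genes, which were chosen on the SW016789 libraries, and for Atf3, Jun and Insig1; bars are SE and are drawn for the 16 genes whose changes differed between treatments. The dashed line marks an equal change; Chac1, Trib3 and Slc7a11 lie near it, and Btg2, Junb and Atf3 lie above it.

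The genes kept most firmly were few. When each of the 12 libraries was left out in turn, 15 of the 58 were called every time: Chac1, Slc7a11, Eif4ebp1, Herpud1, Sesn2, Fam84b, Ppargc1a, Spry2, Rbm15b, Creld2, Homer1, Atf4, Slc1a4, Mthfd2 and Btg2. Of these, Chac1, Herpud1, Sesn2, Ppargc1a, Creld2 and Btg2 were also called under the 10 other settings run. Hspa5 was called in 8 of the 12, Dusp1 in 9, Junb in 8 and Derl3 in 5. The count of 58 moved by more than 1.5 times when any of 7 libraries was left out. It was 18 without the SW016789 1 h library of experiment 1, 90 higher and 16 lower without that of experiment 3, 35 without the SW016789 2 h library of experiment 1, 22 and 36 without the DMSO 1 h libraries of experiments 1 and 2, and 266 and 24 without the DMSO 2 h libraries of experiments 1 and 3.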

How the data were processed

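Paired-end RNA-seq of MIN6 cells gave 39 libraries, 13 from each of 3 independent experiments. The values used were raw gene counts, which the authors deposited by gene symbol after mapping to mm10 with STAR and assigning uniquely mapped pairs by strand with featureCounts (Subread). For these tools the submitters' notes list STAR 2.5.2b and Subread 1.5.1, whereas later versions are named in the study's methods. An mRNA kit is named there too, whereas the labels state rRNA depletion. Pairs that map to near-identical genes are missed, and unspliced RNA over exons is included. The deposited mapping table also holds read counts by region, from which the intergenic percent was computed. The 78 columns of normalized values were not used.

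Tests were run with edgeR 4.0.16 in R 4.3.3. After filterByExpr (by group) 21752 of 24421 symbols remained, 605 having no read at all, and library sizes were adjusted by TMM. The quasi-likelihood fit used all 39 libraries in 13 groups with no block (common dispersion 0.344), with two-sided p-values adjusted by Benjamini-Hochberg and called below 0.05. SE is the absolute log2 change divided by the square root of F. Totals were 9150443 to 37704912 counted pairs in the 12 libraries compared. Replicate numbers mark the shared experiment in the series' design, and deviations from group means had a median correlation of 0.43 in 18 pairs from 1 experiment (14 above 0.1) and -0.27 in 36 pairs from different experiments. Replicates were never as close as sampling noise (chi-square over degrees of freedom, 5.87 or more). Named genes were up to 15 increases and 15 decreases, the largest among those called with a mean of 1 CPM or more and 1 sign in 3 experiments, filled up to 8 by genes that did not pass, with the 4 largest of each list and 30 genes always given. Called genes outside this rule and Bcl2l11 were named after their values were seen. Members and lists were chosen with earlier results of these data known. Alternatives were DESeq2 1.42.0, its size factors, other filters, an experiment block with and without the intergenic percent, subsets of libraries, and each library left out. The pipeline was tested on simulated data.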

Additional observations from a re-analysis of the deposited data

Results flagged for a closer look

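The effect of SW016789 differed between 2 h and 1 h for 58 genes by the test of the difference itself, which is the subject of the report. The change over this hour also differed between SW016789 and thapsigargin, by a test of that difference (edgeR, Benjamini-Hochberg), for 16 genes. That count was 0 in a fit of the libraries compared alone, 4 without both libraries that stood apart and 27 with the experiment as a block. The log2 difference was positive for Ppargc1a (1.06), Creld2 (0.91), Rbm15b (0.88), Sgms2 (0.87), Rgs4 (0.85), Mast4 (0.78), Sdf2l1 (0.76), Herpud1 (0.73), Manf (0.72), Slc30a4 (0.67) and Pdia4 (0.64). It was negative for Insig1 (-0.67), Jun (-1.02), Junb (-1.18), Btg2 (-1.27) and Atf3 (-1.72). Of these 16, 13 are among the 58, and Atf3, Jun and Insig1 are not. Insig1, which retains the sterol sensor in the ER, had a log2 value of 2 h against 1 h of -0.03 with SW016789 and 0.63 with thapsigargin, and Jun, an AP-1 subunit, had -0.70 with SW016789 and 0.31 with thapsigargin.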

How the results depend on the processing

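In the change of the effect, the 53 higher and 5 lower genes became 147 and 76 with DESeq2, 91 and 13 with a replicate block, 132 and 21 with a replicate block and the intergenic percent, 7 and 1 in a fit of the libraries compared alone, and 45 and 2 without libraries above 25% intergenic reads. Both counts stayed within 1.5 times with DESeq2's size factors (50 and 6), without a filter (52 and 5) and for genes averaging 1 CPM or more (69 and 6). In 2 alternatives chosen after seeing the data they were 49 and 4 in experiments 2 and 3 alone, of which 22 were among the 58, and 11 and 1 without both libraries that stood apart. With 1 library left out the higher genes numbered 17 to 234 and the lower 1 to 32. At 1 h, 81 calls became 393 with DESeq2, 126 with the block and intergenic percent, 36 in the libraries compared alone and 53 without both libraries, and 41 to 84 with 1 left out. At 2 h, 562 became 1156 with DESeq2, 1315 with the block and intergenic percent, 184 in the libraries compared alone, 1089 in experiments 2 and 3 and 313 without both libraries, and 266 to 1638 with 1 left out. At 6 h, 1531 became 2428 with DESeq2, 2419 with the block and intergenic percent and 952 in experiments 2 and 3, and 572 to 1155 with 1 left out. The difference from thapsigargin, 16 genes, became 47 with DESeq2, 27 with the block, 36 with the block and intergenic percent, 0 in the libraries compared alone, 2 without libraries above 25% intergenic reads, 9 in experiments 2 and 3 and 4 without both libraries, and 2 to 12 with 1 left out. The causes of these moves were not tested.

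None of the 58 genes changed sign under any of these alternatives, which their selection on the same libraries makes likely. Among the 39 genes that had not passed and were followed through the alternatives, the signs of 11 changed. Jun, Insig1, Ccnd1, Hspb1, Lss, Hspa4l and Bcl2l11 were not among these 39. In experiments 2 and 3 alone the log2 changes were 0.69 for Nrip2, 0.77 for Slc43a1, 0.16 for Slc38a1, 0.40 for Gsta4, 2.39 for Osgin1 and -0.13 for Crem. Without libraries above 25% intergenic reads they were 0.061 for Slc38a1, 0.22 for Gsta4, 0.93 for Osgin1 and -0.025 for Ins1, and without both libraries that stood apart 0.33 for Slc38a1, 1.57 for Gsta4 and 0.36 for Osgin1. Osgin1 had 0.040 with the replicate block, and with the block and intergenic percent Osgin1 had 0.64 and Ins1 -0.029. With 1 library left out the change ranged from -7.60 to 2.63 for Slc43a1, -1.77 to 0.069 for Slc38a1, -1.05 to 1.01 for Gsta4, -0.85 to 1.30 for Osgin1, -0.78 to 0.071 for Fosb, -0.022 to 0.25 for Ier3, -0.15 to 0.28 for Ins1, -0.25 to 0.000476 for Fam134c and -0.000763 to 0.27 for Vdac1. The DMSO 2 h library of experiment 2, with 24009152 counted pairs, held no read for 457 of the 12417 genes whose median was at least 2 CPM. The SW016789 1 h library of experiment 1, with the lowest total of 9150443, held no read for 19 of them. What left these genes without a read was not tested.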
